A study of Mus musculus with 4 samples.

Results

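In single-cell RNA-seq of mouse lymph node stroma, 260 of 46638 cells kept were chosen for transcripts of Has1, Ccn3 and a group of accompanying genes. A cell was chosen when its UMIs (unique molecular identifiers, 1 for each captured transcript) of Ccn3 and Has1 summed to at least 3 and at least 2 of the 7 genes Ecm1, Nppc, Cpe, Col6a5, Apold1, Sned1 and Fxyd5 were detected. The sum of Ptgs2 and Il6 UMIs was at most 3, and Pi16, Pecam1 and Ptprc were at 0. Cells kept had at least 500 genes, at least 1000 UMIs and at most 10% mitochondrial UMIs. The rule uses measured values of these same cells, so levels of any gene in the chosen cells against other cells are given as a description, with no test.

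The study compared peripheral lymph nodes of mice with and without Notch2 in cells that express Cre from Ccl19, a gene of lymphoid fibroblasts. All mice were 12-week-old C57BL/6 females, and live CD45- CD31- cells were sorted from axillary, brachial and inguinal nodes. Control 1 was Ccl19-Cre x R26R-EYFP and Notch2 cKO 1 (conditional knockout) carried Notch2 fl/fl besides both of these alleles; each pooled 6 mice, and together they made batch 1. Control 2 was Notch2 fl/fl by its genotype label, although its title names Ccl19-Cre, and Notch2 cKO 2 joined Ccl19-Cre to Notch2 fl/fl; each pooled 3 mice in batch 2. The mice of control 1 carried Cre and a reporter without floxed Notch2, so the controls of the batches differ in alleles as well as in handling. The sort did not use the reporter, so the cells compared include cells in which Cre may not have acted.

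Fibroblasts of lymph nodes build the fibre network of the node and make the chemokines that place T and B cells. Those of the T-cell zone are known for Ccl19 and Ccl21a, whereas fibroblasts of the capsule and of the sheath around large vessels are known for Cd34, Ly6a and Pi16. Hyaluronan, a long sugar chain of the matrix, is made by the Has enzymes from UDP-glucuronic acid and UDP-N-acetylglucosamine. Ccn3 is a secreted matrix-associated protein, and Nppc encodes the precursor of C-type natriuretic peptide, which raises cGMP in cells that carry its receptor.

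Most of the cells were chosen through Has1 rather than Ccn3. No Ccn3 UMI was found in 196 of the 260 cells (75.4%), 35 carried both genes and 29 carried Ccn3 alone. The 64 cells with Ccn3 were 1 cell in control 1, 0 in cKO 1, 49 in control 2 and 14 in cKO 2. Of the other genes of the rule, Ecm1 was detected in 232 cells and Sned1 in 225, but Nppc in only 30, 20 of them with a Ccn3 UMI. The cells are therefore called by their rule, the Has1/Ccn3 cells, since neither Ccn3 nor Nppc is found in most of them.

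**Figure D1:**
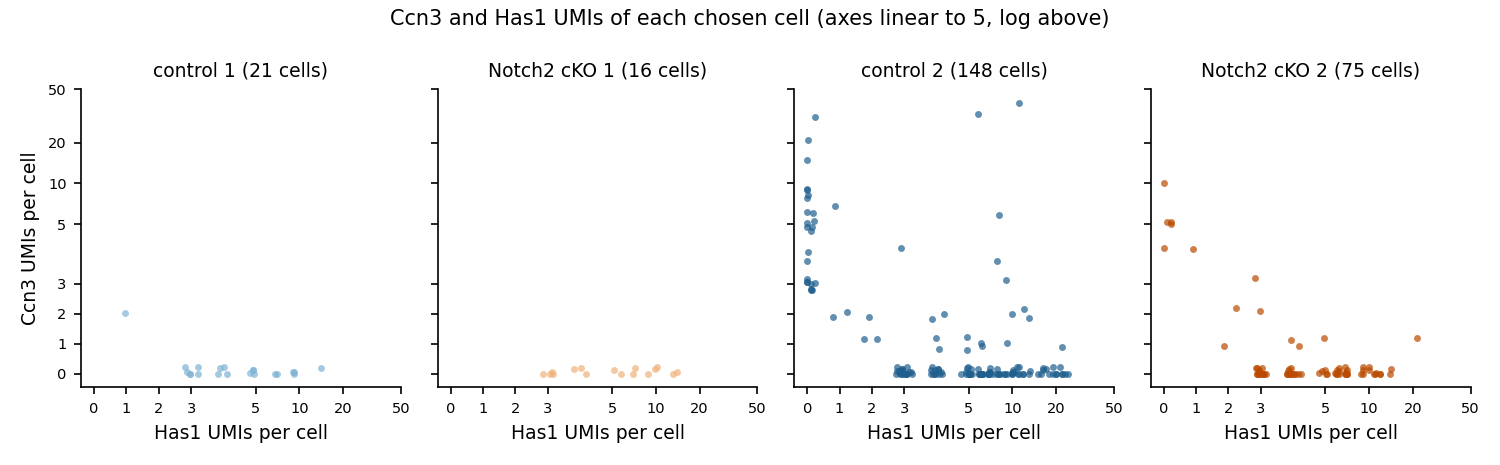
Has1 UMIs (x axis) and Ccn3 UMIs (y axis) of each Has1/Ccn3 cell, 1 point a cell with slight jitter, 1 panel a library; axes are linear to 5 and logarithmic above. Cells along the bottom have no Ccn3 UMI (196 of 260), and none of the 16 cells of cKO 1 leaves it.

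At the edges of the rule, the sum of Ccn3 and Has1 was exactly 3 in 7, 4, 32 and 16 chosen cells of control 1, cKO 1, control 2 and cKO 2, and 11, 12, 51 and 37 cells just outside it had a sum of 2. Of the 260 cells, 116 carried just 2 of the 7 accompanying genes and 1 carried all 7. The limit on Ptgs2 and Il6 left out 13, 10, 218 and 54 cells that met the other conditions, and the limit on Pi16 left out 0, 16, 41 and 19.

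Has1, the gene most of the cells were chosen by, stood at 2192, 1672, 796 and 645 UMIs per 1000000 summed UMIs (CPM) of the Has1/Ccn3 cells in control 1, cKO 1, control 2 and cKO 2, the order used for all values below. In the other fibroblasts it stood at 23.9, 36.0, 70.2 and 23.8 CPM. These other fibroblasts, 6516, 6395, 8753 and 6390 cells, had at least 3 of 7 general fibroblast genes, no Pecam1, Ptprc or Epcam, and at most 2 UMIs of Rgs5 (a pericyte gene), besides a further limit that is not reported here. Has1 was found in 2.81%, 4.30%, 9.39% and 6.23% of them, against 3.85%, 1.22%, 1.67% and 3.27% of cells with Ptprc, a leukocyte gene, at median depths of 2714, 4183, 5047 and 7964 UMIs. The share in control 1 rests on 1 of 26 cells with Ptprc. Among cells with Pecam1, an endothelial gene, Has1 was found in 2.70%, 4.55%, 10.6% and 5.14%, close to the other fibroblasts of each library. These cells were taken by Pecam1 alone, at median depths of 2711, 3425.5, 7548 and 9019 UMIs. With no limit on fibroblast genes they can include fibroblasts, so their share does not measure background. In cells with at least 10 Rgs5 UMIs and no Pdgfra, Has1 was found in 0%, 0%, 3.58% and 2.58%, with 41 and 9 such cells in batch 1. In batch 2, shares in Ptprc cells and these Rgs5 cells lay below those in the other fibroblasts and in Pecam1 cells. At least 3 Has1 UMIs were held by 34, 68, 322 and 102 of the other fibroblasts. The part of background in the share of other fibroblasts with Has1 was not tested.

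Ccn3 stood at 39.9, 0, 245 and 71.5 CPM in the Has1/Ccn3 cells and at 1.35 to 9.97 CPM in the other fibroblasts. Nppc stood at 99.7, 0, 56.9 and 7.95 CPM against 0.571 to 2.38 CPM. Both genes were thus unevenly spread over the libraries, and neither had a UMI in the 16 cells of cKO 1, which allows up to 47.8 CPM there (3 UMIs). Ecm1, a secreted matrix glycoprotein, was at 857, 303, 515 and 498 CPM, and Sned1, another matrix protein, was at 1036, 749, 644 and 1005 CPM, so that these accompanying genes were present in every library. Cpe, which trims peptide hormones, was at 63.7 to 129 CPM, Fxyd5, a small membrane protein, at 39.9 to 85.8 CPM, Col6a5, a chain of collagen VI, at 19.9 to 97.0 CPM, and Apold1 at 0 to 120 CPM.

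The libraries differ in depth, and between batches the depth of the chosen cells follows it. Total UMIs per library ran from 21533049 to 119002408, with both libraries of batch 2 above both of batch 1. The median Has1/Ccn3 cell held 2248, 3341, 7609.5 and 8013 UMIs, and the sums over these cells were 50170, 62783, 1195206 and 629104 UMIs. In batch 1 a single UMI is therefore worth 15.9 to 19.9 CPM, and low genes there rest on few molecules. No barcode was shared between libraries among the chosen cells, and 18 to 50 barcodes were shared by each pair of libraries among all cells kept. No doublet caller was run; Pecam1 and Ptprc were at 0 in every chosen cell by the rule.

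Shares of the Has1/Ccn3 cells were 0.232% (exact 95% Clopper-Pearson interval 0.144 to 0.354), 0.205% (0.117 to 0.332), 0.870% (0.736 to 1.02) and 0.588% (0.463 to 0.737) of cells kept. The intervals cover counting error only. The knockout library was below its control in both batches, with differences of -0.0273 and -0.282 percentage points and overlapping intervals in batch 1; in batch 2 the intervals met at their ends. The libraries of a group differed more than the groups did: the mean was 0.551% ± 0.451 in control and 0.396% ± 0.271 in knockout (SD, n = 2 libraries each). An exact two-sided permutation test gave p = 0.667, where the smallest p that 2 against 2 allows is 0.333.

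A rule that asks for a number of UMIs can pick more cells where cells are deeper. The median cell kept held 2123, 2960, 6169 and 7604.5 UMIs. Batch 2 was thus deeper with higher shares, but within each batch the deeper library had the lower share. Each cell was therefore thinned to 2000 UMIs, leaving out shallower cells. Of 5156, 6392, 15677 and 12205 cells, 10, 7, 65 and 23 then met the rule, or 0.194%, 0.110%, 0.415% and 0.188%. Without thinning, the same cells gave 0.291%, 0.203%, 0.944% and 0.615%. After thinning, both controls lay above both knockouts, with a mean difference of -0.155 percentage points for knockout minus control (exact two-sided permutation p = 0.333, the smallest this design allows). Control 1 at 0.194% and cKO 2 at 0.188% were apart by much less than their intervals (0.0930 to 0.356 and 0.119 to 0.283).

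**Figure D2:**
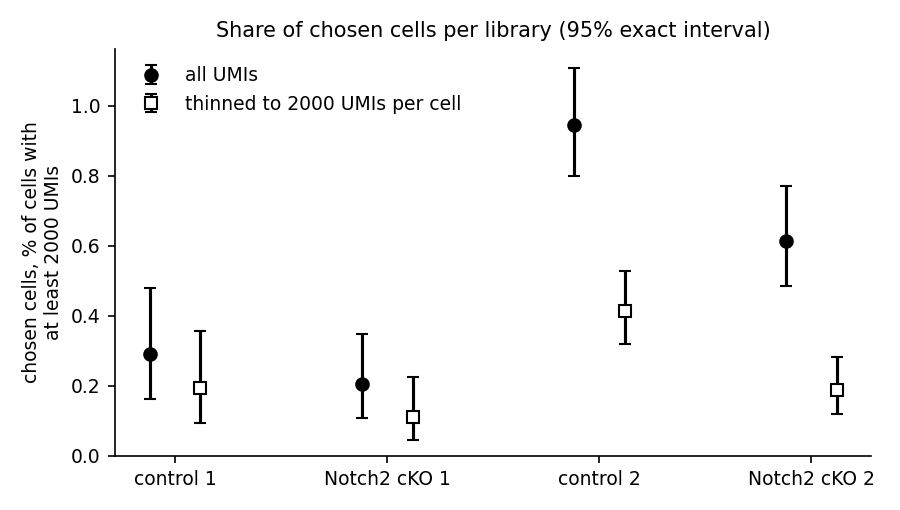
Share of Has1/Ccn3 cells (y axis, % of cells with at least 2000 UMIs) in each library, with exact 95% intervals; filled circles use all UMIs and open squares use cells thinned to 2000 UMIs. Thinning lowers control 2 from 0.944% to 0.415% and cKO 2 from 0.615% to 0.188%, closer to the libraries of batch 1.

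The label's cell type holds in its broad sense: the cells carry general fibroblast transcripts at levels above the other fibroblasts. The summed level of 9 general fibroblast markers was 25414, 28065, 17200 and 19024 CPM, against 12206, 12659, 10903 and 10822 CPM in the other fibroblasts. Dcn, a small proteoglycan that binds collagen, stood at 15069, 15275, 11186 and 13322 CPM against 6822 to 7574 CPM. Pdgfra, a receptor found on most fibroblasts, had a UMI in 7, 12, 110 and 57 of the cells, and its level of 219, 701, 289 and 300 CPM lay below that of the other fibroblasts in every library (452, 902, 334 and 425 CPM).

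Markers of most other cell types were low, while pericyte and smooth muscle sums lay above the other fibroblasts in some libraries and below in others. Summed levels were 0 for 5 epithelial markers in every library, 0 to 19.9 CPM for leukocyte markers, 0 to 15.9 CPM for lymphatic endothelial markers, 0 to 31.9 CPM for Schwann cell markers, and 0 to 126 CPM for blood endothelial markers; the leukocyte and blood endothelial lists each hold 1 gene that the rule sets to 0. In cKO 1, mesothelial markers summed to 95.6 CPM against 2.08 CPM in the other fibroblasts, with at most 5.86 CPM in the other libraries. There 5 of the 6 mesothelial markers were at 0 and 1 UMI is worth 15.9 CPM, so this sum rests on few UMIs of 1 gene. Tendon markers ran from 19.9 to 255 CPM, below the other fibroblasts of each library (161 to 523 CPM). Pericyte markers summed to 638, 319, 890 and 889 CPM against 656, 465, 658 and 609 CPM in the other fibroblasts. Smooth muscle markers summed to 1415, 478, 1662 and 1167 CPM against 972, 617, 1071 and 1125 CPM. In batch 1 the gene Des held 68 of the 71 smooth muscle UMIs of control 1 and 26 of 30 in cKO 1. For the 3 genes of each list at 20 CPM or more, median ratios were 0.787 (pericyte) and 0.757 (smooth muscle). Of these, 1 pericyte and 0 smooth muscle genes were higher in all 4 libraries, and 0 of either were lower. Rgs5, a pericyte gene, was above 2 UMIs in 76 of the 260 cells, a level at which a cell could not be among the other fibroblasts, so its higher level in the Has1/Ccn3 cells is partly set by the choice of the cells compared. Of the 260 cells, 183 met every limit set for the other fibroblasts.

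By their lowest ratio over the 4 libraries, 2 lipid synthesis genes led the genes outside the rule at 50 CPM or more. Of 3248 genes at 50 CPM or more in the Has1/Ccn3 cells, 2 (0.0616%) were at least 4 times higher than in the other fibroblasts in every library, and 33 (1.02%) at least 2 times. The limit was set on the Has1/Ccn3 cells alone, so the ranking favours genes that are low in the other fibroblasts. The 2 genes were Msmo1, which removes methyl groups from sterols late in cholesterol synthesis, and Scd1, which makes monounsaturated fatty acids. Msmo1 stood at 79.7, 95.6, 49.4 and 52.5 CPM against 12.3, 9.66, 8.61 and 11 CPM. Its UMIs were few, 4, 6, 59 and 33, and in cKO 1 all 6 came from 1 cell. Scd1 stood at 99.7, 112, 58.6 and 50.9 CPM against 6.75, 18.5, 13.3 and 11.3 CPM. In fibroblasts with at least 2 Pi16 UMIs, called Pi16 cells here, Scd1 was also high, at 128, 133, 103 and 95.1 CPM.

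Sqle, the squalene epoxidase, and Idi1, the isomerase of the isoprene units, were also among the 20 genes whose lowest ratio was highest. Idi1 stood at 239, 47.8, 65.3 and 89.0 CPM against 12.1 to 15.7 CPM. Since these genes share a pathway, 22 genes of cholesterol synthesis and uptake were then listed, after their values were seen. Of the 14 at 20 CPM or more, 12 were higher in the Has1/Ccn3 cells in all 4 libraries, 6 of them at least 2 times, with a median ratio of 2.53. Over all 6336 genes at that level, 884 (14%) were higher in all 4 libraries and 686 (10.8%) lower, with a median ratio of 0.973. The list was prompted by genes already seen to be high, so its count is no test against this background.

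The list summed to 2192, 701, 871 and 957 CPM in the Has1/Ccn3 cells and to 366, 363, 279 and 429 CPM in the other fibroblasts. In cKO 1 a single cell held 29 of the 44 UMIs of the list (65.9%), and without that cell the level was 255 CPM, below that of the other fibroblasts. Without the highest cell of each, the other 3 libraries stood at 1941, 802 and 747 CPM, still above. The higher level thus rests on 3 of the 4 libraries. Hmgcs1, which feeds the pathway, was at 419, 63.7, 134 and 156 CPM against 37.5 to 51.6 CPM.

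Of the genes that make the sugar precursors of hyaluronan, 3 of 7 measured were higher in all 4 libraries, beside 884 of 6336 (14%) over all genes. As these genes were listed after values were seen, the count is no test. Gfpt2, which opens the hexosamine pathway, stood at 797, 573, 749 and 664 CPM against 115, 210, 324 and 345 CPM. Uap1, which makes UDP-N-acetylglucosamine, stood at 359, 159, 282 and 277 CPM against 61.5, 66.4, 116 and 81.0 CPM. Ugdh, which makes UDP-glucuronic acid, stood at 618, 255, 209 and 297 CPM against 55.8, 98.9, 122 and 75.0 CPM. For each of these 3 genes the Has1/Ccn3 cells were above the other fibroblasts of the same library in all 4 libraries.

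The 7 genes come from a list of UDP-sugar synthesis drawn up after values were seen, whose median ratio was 1.44. The list summed to 2093, 1290, 1430 and 1435 CPM, between the other fibroblasts (417, 578, 752 and 698 CPM) and Pi16 cells (1630, 2052, 3607 and 2557 CPM), in 3 of 4 libraries; in control 1 it was above both. Among the other hyaluronan genes, the synthase Has2 showed no common direction, at 120, 0, 83.7 and 118 CPM against 52.1, 39.0, 101 and 41.2 CPM, and Cd44, a hyaluronan receptor, was at 199, 112, 252 and 196 CPM against 119, 92.3, 208 and 141 CPM.

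**Figure D3:**
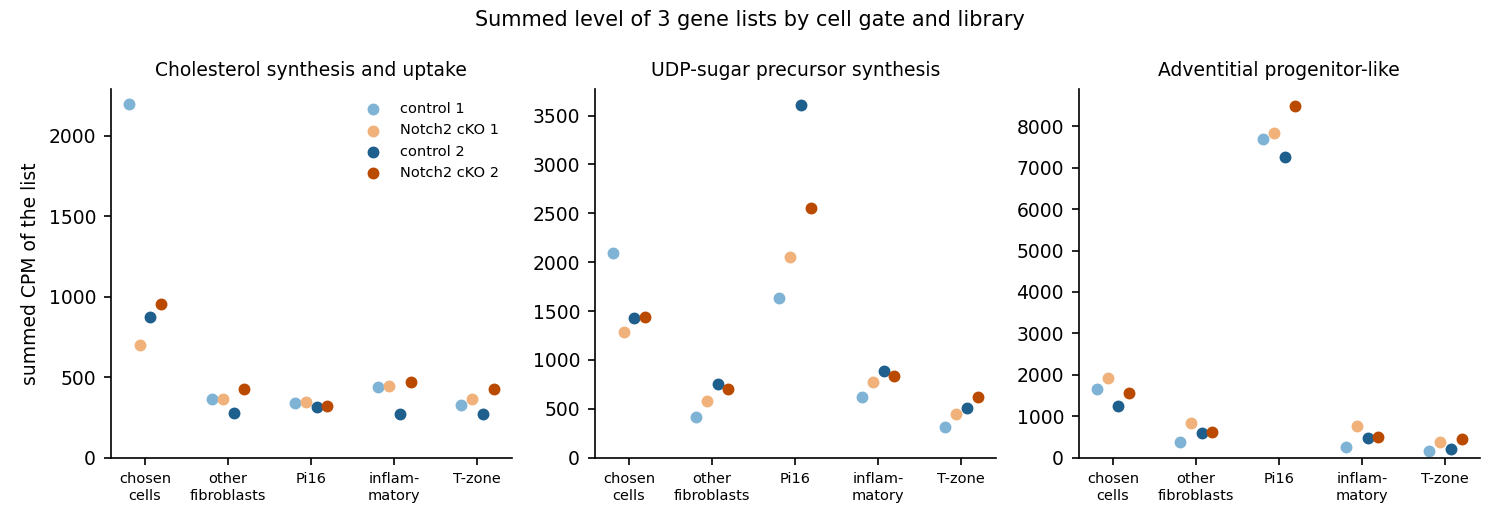
Summed CPM (y axis) of the cholesterol, UDP-sugar and adventitial gene lists in the Has1/Ccn3 cells, all other fibroblasts, and the Pi16, inflammatory (Ptgs2 and Il6 UMIs summing to over 3) and T-zone (at least 3 Ccl19 UMIs) cells among them; colours are libraries. The cholesterol list is highest in the Has1/Ccn3 cells (701 to 2192 CPM). Pi16 cells are highest for the adventitial list, summed without Pi16, in all 4 libraries and for the UDP-sugar list in 3.

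Genes of adventitial and capsular fibroblasts lay between those of T-zone cells and of Pi16 cells. Cd34 stood at 419, 430, 228 and 243 CPM in the Has1/Ccn3 cells, 61.5, 117, 75.9 and 45.0 CPM in the other fibroblasts, and 1513, 1572, 1046 and 1046 CPM in Pi16 cells. Ly6a, a surface marker of such cells, stood at 538, 892, 512 and 787 CPM against 125, 316, 146 and 298 CPM, and Cd248, an endosialin found on stromal cells, at 498, 366, 144 and 114 CPM against 34.5, 56.4, 43.0 and 26.6 CPM. For all 3 genes, T-zone cells were lowest and Pi16 cells highest in every library. Since cells with Pi16 were kept out by the rule, the distance to Pi16 cells is in part set by the choice.

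The list of 10 adventitial markers, summed without Pi16 of the rule, was 1654, 1927, 1251 and 1571 CPM in the Has1/Ccn3 cells. The same sum was 377 to 845 CPM in the other fibroblasts and 7267 to 8482 CPM in Pi16 cells. With Pi16 counted, the list stood at 415 to 1020 CPM in the other fibroblasts. Of its 8 genes at 20 CPM or more outside the rule, 3 were higher in all 4 libraries and 0 lower, beside 14% and 10.8% over all genes. These 3 (Cd34, Ly6a and Ly6c1) were each at least 2 times higher.

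Other genes were higher than in Pi16 cells as well. Fgf10, a growth factor of stroma, stood at 179, 255, 192 and 297 CPM, against 31.7 to 84.3 CPM in the other fibroblasts and 33.4 to 166 CPM in Pi16 cells. Ccdc3, a secreted protein, was at 159, 319, 140 and 207 CPM against 17.1 to 75.7 CPM and 0 to 25.7 CPM. Tslp, a cytokine of barrier tissues, was at 99.7, 47.8, 45.2 and 20.7 CPM against 4.36 to 17.0 CPM and 0 to 15.4 CPM. For each of these 3 genes the Has1/Ccn3 cells were the highest of the 3 populations in every library. Ptn, a secreted heparin-binding growth factor, was more uneven, at 2930, 112, 935 and 515 CPM against 376, 28.4, 327 and 95 CPM.

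**Figure D4:**
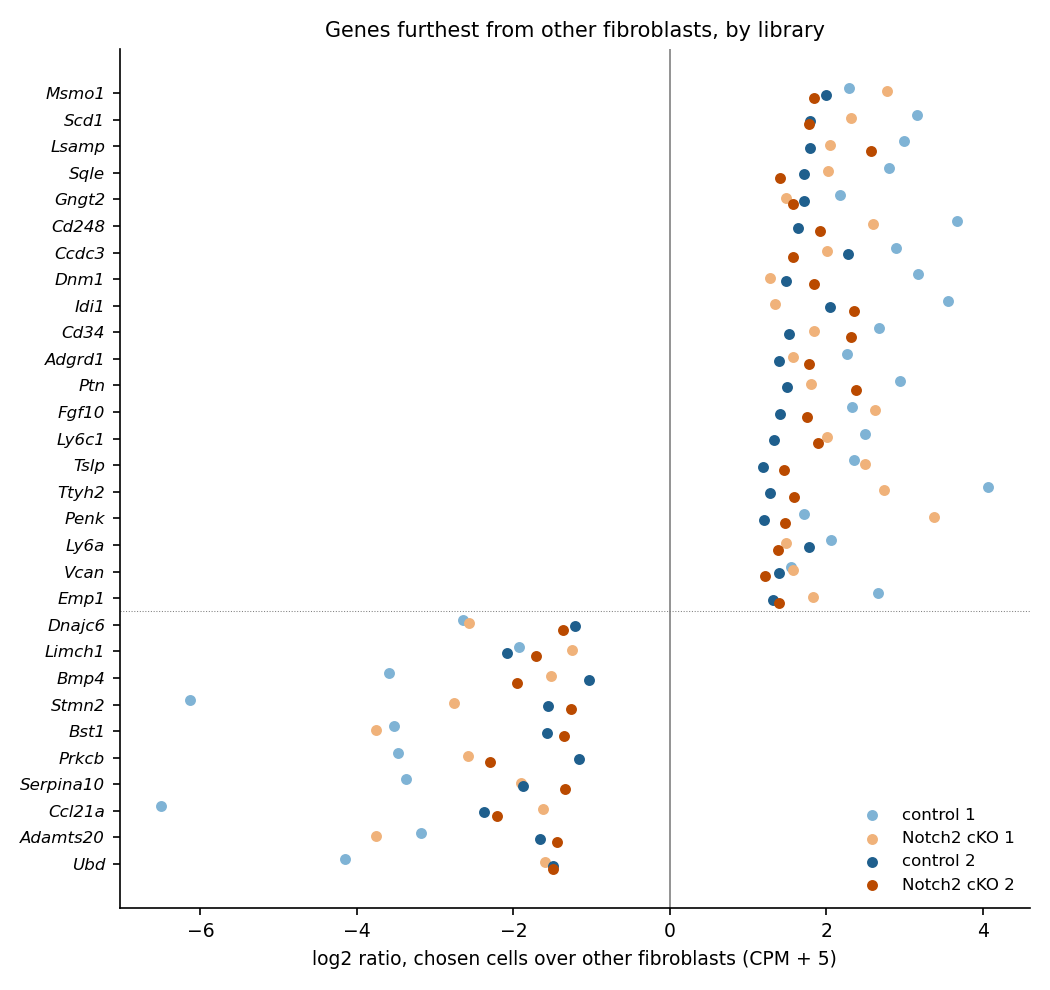
Log2 ratio of CPM + 5 in the Has1/Ccn3 cells over the other fibroblasts (x axis) for the 20 genes with the highest lowest-library ratio (above the dotted line) and the 10 with the lowest highest-library ratio (below it); each point is a library. The upper genes lie right of 0 and the lower genes left of 0 in all 4 libraries, as their choice fixes.

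T-zone genes were low. All 5 of the measured T-zone markers were lower than in the other fibroblasts in all 4 libraries, 4 of them at most 0.5 times their level, with a median ratio of 0.298. Over all genes, 10.8% were lower in all 4 libraries. Ccl19, the ligand of CCR7 whose promoter drives Cre here, stood at 777, 255, 1059 and 676 CPM against 3484, 1005, 2152 and 1515 CPM. Ccl21a, the other CCR7 ligand, stood at 99.7, 2740, 974 and 1952 CPM against 9480, 8435, 5074 and 9079 CPM. Near-identical copies of Ccl21a cannot be told apart in such counts. Bst1, a surface enzyme of reticular cells, was at 19.9, 15.9, 54.4 and 98.6 CPM against 172 to 282 CPM.

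Of 12 reticular chemokines and survival factors, 7 were lower in all 4 libraries and 0 higher, beside 10.8% and 14% over all genes. Cxcl12, which retains leukocytes and their precursors, stood at 4425, 3361, 1863 and 2467 CPM against 5852, 6303, 4167 and 4067 CPM, so it stayed abundant although lower. Of 3091 genes at 50 CPM or more in the other fibroblasts, 26 (0.841%) were at most 0.5 times that level in every library.

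Matrix lists were split: collagens and basement membrane genes were mostly higher, elastic fibre genes and small proteoglycans were not. Of 9 fibrillar and fibril-associated collagens, 6 were higher in all 4 libraries and 1 lower, of 13 basement membrane genes 8 and 0, and of 5 collagen VI chains outside the rule 4 and 1, with median ratios of 1.59, 1.56 and 1.58. Over all genes, 14% were higher and 10.8% lower in all 4 libraries, which stands beside each count of matrix genes here. Col3a1, a fibrillar collagen, stood at 3149, 3122, 2325 and 1618 CPM against 1160, 1133, 1120 and 888 CPM. Fbn1, the fibrillin of elastic microfibrils, was at 737, 573, 608 and 658 CPM against 163, 245, 274 and 257 CPM, but of 15 elastic fibre genes only 3 were higher in all 4 libraries and 3 lower. Of 8 small leucine-rich proteoglycans 2 were higher and 1 lower, with a median ratio of 1.03. Hspg2, which encodes the basement membrane proteoglycan perlecan, was at 279, 366, 144 and 141 CPM against 93.6, 123, 88.2 and 85.7 CPM.

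Among the natriuretic peptide and cGMP genes, 6 reached 20 CPM outside Nppc, and 0 were higher or lower in all 4 libraries, beside 14% and 10.8% over all genes. The same was true of the 7 measured inflammatory cytokines and chemokines, although 10 to 218 cells a library had been left out for Ptgs2 and Il6. Immediate early genes, which cell isolation can induce, were higher in all 4 libraries for 8 of 16 genes, beside 14% over all genes. Their median ratio was 1.19, and their part in the other differences was not tested.

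The cells with and without Ccn3 can be set side by side in batch 2, the only batch with enough of both. The comparison describes 49 and 99 cells in control 2 and 14 and 61 in cKO 2, with close median depths (7969 and 7283 UMIs, 8870 and 8005 UMIs), and was chosen after values were seen. Acta2, the smooth muscle actin, stood at 1564 CPM with Ccn3 and 248 without in control 2, and at 880 and 128 CPM in cKO 2. Tagln, an actin-binding protein of contractile cells, stood at 1330 and 202 CPM, and at 1220 and 274 CPM. In cKO 2 a single cell with Ccn3 held 81 of the 101 Acta2 UMIs and 113 of the 140 Tagln UMIs lay in 1 cell. Without the highest cell of each kind, Acta2 was at 1265 and 64.5 CPM in control 2 but at 191 and 89.3 CPM in cKO 2, and Tagln at 1188 and 119 CPM but at 257 and 200.04 CPM.

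A list of 12 contractile genes summed to 7093 and 2002 CPM in control 2 and to 5211 and 1814 CPM in cKO 2, against 2417 and 2655 CPM in the other fibroblasts. Without the highest cell of each kind the sums were 6307 and 1461 CPM, and 2755 and 1680 CPM. The higher summed level of cells with Ccn3 thus rests on many cells in control 2, and to a large part on 1 of 14 cells in cKO 2, where the sum of the rest lies close to the other fibroblasts. The median cell with Ccn3 was higher in both libraries, at 3015 against 1102.5 CPM in control 2 and 2616 against 1323 CPM in cKO 2. By the rule, cells without Ccn3 hold at least 3 Has1 UMIs. No Has1 UMI was found in 24 of 49 and 5 of 14 cells with Ccn3, so the split differs in Has1 as well.

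Other measures moved with Ccn3. Pdgfra had a UMI in 28 of 49 cells with Ccn3 and 82 of 99 without in control 2, and in 9 of 14 and 48 of 61 in cKO 2. Ccn3 itself was found in 6.02% and 3.87% of mural-type cells of these libraries (at least 10 Rgs5 UMIs, no Pdgfra), against 2.18% and 0.720% of the other fibroblasts. The part of such cells in the contractile values was not tested.

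At least 3 of 5 smooth muscle markers were found in 14 of 49 Ccn3 cells of control 2 (28.6%, exact interval 16.6 to 43.3), in 14 of 99 without Ccn3 (14.1%, 7.95 to 22.6) and in 19.0% of the other fibroblasts. In cKO 2 they were found in 3 of 14 (21.4%, 4.66 to 50.8), in 6 of 61 (9.84%, 3.70 to 20.2) and in 12.4% of the other fibroblasts. The intervals overlap in both libraries and hold the share of the other fibroblasts. Nppc, which like Ccn3 belongs to the rule, was at 150 CPM with Ccn3 and 13.5 without in control 2 (57 and 11 UMIs). In cKO 2 it had 3 and 2 UMIs, too few to compare.

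For sterol genes, the cholesterol list summed to 1456 CPM with Ccn3 and 599 without in control 2 and to 1961 and 733 CPM in cKO 2. Without the highest cell of each kind these were 1250 and 503 CPM, and 815 and 652 CPM, so the difference of sums in cKO 2 lay mostly in 1 cell, which held 139 of 225 UMIs. The median cell was at 476 and 284 CPM in control 2, and at 665 and 450 CPM in cKO 2. The cells without Ccn3 had more Ogn, a small proteoglycan, at 307 against 86.9 CPM in control 2 and 311 against 131 CPM in cKO 2, and more Pdgfra, at 350 against 161 CPM and 313 against 244 CPM. Cilp, a matrix protein of cartilage and stroma, was at 67.5 against 2.63 CPM and 136 against 34.9 CPM, from 1 and 4 UMIs in the cells with Ccn3. These 3 orders were the same without the highest cell of each kind.

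Between Notch2 cKO and control, no gene passed the test within the Has1/Ccn3 cells. UMIs were summed per library and compared over the 2 control and 2 knockout libraries with batch in the model. Of 5656 genes tested, 0 (0%) were called by edgeR's quasi-likelihood test at a Benjamini-Hochberg adjusted p under 0.05, and the smallest adjusted p was 0.999. At an unadjusted p under 0.05 there were 84 higher (1.49%) and 83 lower (1.47%). DESeq2 also called 0, with 17 and 16 at the unadjusted threshold. Libraries pool mice, so the spread between them is that of pools and batches. Without control 2, the library with most of the cells, the count was 9, and without cKO 1 it was 1; leaving out either of the others gave 0, as did all 4 libraries with no batch term.

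Notch2 (chr 3, 98013527 to 98150361, GRCm38), the gene targeted, stood at 59.8, 31.9, 55.2 and 35.0 CPM in the Has1/Ccn3 cells, from 3, 2, 66 and 22 UMIs. Both knockout values lay below both control values, with means of 33.4 ± 2.20 and 57.5 ± 3.24 CPM (SD, n = 2). The log2 difference was -0.74 (SE 0.51, adjusted p = 0.999 in edgeR's quasi-likelihood test), and did not pass. In the other fibroblasts Notch2 stood at 38.5, 20.1, 59.4 and 41.2 CPM. Reads of this 3′ assay may lie outside the deleted exon, which the labels do not name, so the level does not check the genotypes.

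The values below did not pass the test. They are the 5 genes in each direction with the lowest unadjusted p at 50 CPM or more. Because this same comparison picked them, a lack of overlap between control and knockout is largely set by the choice. The share of all genes without overlap is not given here. Cyp26b1, an enzyme that breaks down retinoic acid, stood at 299, 15.9, 287 and 27 CPM (log2 difference -3.59, SE 0.49). In the other fibroblasts it was at 121, 47.9, 98.2 and 38.7 CPM. Control and knockout did not overlap in either population. The difference in effect between the populations was -2.14 on the log2 scale, with an adjusted p of 0.0649 in edgeR's quasi-likelihood test.

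Vtn, the plasma and matrix protein vitronectin, stood at 259, 31.9, 236 and 63.6 CPM (log2 difference -2.19, SE 0.47). Ccl2, a monocyte chemokine, stood at 3688, 669, 1662 and 645 CPM (-1.92, SE 0.45), and Efhd2, a calcium-binding protein, at 140, 31.9, 67.8 and 14.3 CPM (-2.25, SE 0.53). The control values of these 3 genes lay above both knockout values, an order that their choice by p favours. S100a4, the fifth, is described with the differences in effect.

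In the other direction, Sfrp1, a secreted modulator of Wnt signalling, stood at 19.9, 207, 46.0 and 202 CPM (log2 difference 2.27, SE 0.49), close to the other fibroblasts at 57.3, 247, 53.2 and 202 CPM. Cd74, the invariant chain of MHC class II, stood at 219, 685, 183 and 531 CPM (1.53, SE 0.36), and Igf1, a growth factor, at 140, 494, 97.9 and 261 CPM (1.51, SE 0.39). Gfra2, a receptor for neurturin, was at 59.8, 191, 16.7 and 71.5 CPM, and Ctsh, a lysosomal protease, at 19.9, 223, 104 and 278 CPM. Knockout values lay above both control values for these 5 genes, again an order that their choice by p favours.

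By group, 0 members of any list passed. The fitted difference was above 0 for 8 of 8 small leucine-rich proteoglycans and 6 of 6 Wnt ligands and modulators. It was below 0 for 8 of 8 contractile genes and for 5 of 5 natriuretic peptide and cGMP genes outside the rule. Over all genes it was above 0 for 2870 of 5471 and below for 2601, with a median of 0.026. These lists were picked after values were seen, because all their members had 1 sign. In both batches alike, 7 of 8 proteoglycans and 3 of 6 Wnt genes were higher in knockout. Lower in both were 3 of 8 contractile genes, 3 of 5 natriuretic peptide and cGMP genes and 5 of 7 inflammatory cytokines and chemokines. Of the 5471 genes, 1560 were higher and 1263 lower in both batches. In batch 1 contractile UMIs were few, with Tagln at 0 and 15.9 CPM and Myh11 at 0 in both. The share of cells with Ccn3 was 49 of 148 in control 2 and 14 of 75 in cKO 2, and its part in the contractile values was not tested.

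The effect of genotype differed between the Has1/Ccn3 cells and the other fibroblasts for 4 of 14096 genes (0.0284%) in edgeR's quasi-likelihood test of the difference, with library as a block. This fit leaves 1 residual degree of freedom a gene, so its SE and p-values rest mainly on a spread shared over genes. They say little of how far the 2 pools of a group differ for a single gene. S100a4, a small calcium-binding protein of motile cells, stood at 578, 95.6, 482 and 143 CPM in the Has1/Ccn3 cells, from 29, 6, 576 and 90 UMIs in 10, 2, 79 and 33 cells, and at 61.3, 179, 106 and 84.7 CPM in the other fibroblasts. Both controls lay above both knockouts in the Has1/Ccn3 cells but not in the other fibroblasts. The difference in effect was -2.21 (SE 0.38, adjusted p = 4.60e-05 in edgeR's quasi-likelihood test). Leaving out 1 library, which leaves no room for a batch term, gave an adjusted p of 0.269 without control 1 and 0.730 without cKO 1, beside 0.00598 with all 4 libraries and no batch term.

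Ifi27l2a, an interferon-induced gene, stood at 179, 398, 197 and 374 CPM in the Has1/Ccn3 cells and at 93.4, 75.9, 104 and 47.3 CPM in the other fibroblasts. Knockout values were above both controls in the former and below both in the latter, a difference of 1.92 (SE 0.39, adjusted p = 0.00381 in edgeR's quasi-likelihood test). With no batch term the adjusted p was 0.156, and leaving out any 1 library it was 0.160 or more. In Pi16 cells the gene was at 851, 526, 1024 and 656 CPM, lower in knockout as in the other fibroblasts.

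The other calls rest on single libraries or cells. Ccl21a, with a difference of 1.74 (SE 0.25, adjusted p = 1.08e-06 in edgeR's quasi-likelihood test), had 5 UMIs in control 1, and 1 cell held 100 of the 172 UMIs of cKO 1. Leaving out control 1 gave a difference of 0.28, and leaving out the cells in the top 10% of UMIs gave -0.46. Tnfsf8, a ligand of the TNF family, stood at 0, 15.9, 15.1 and 141 CPM, against 53.6, 80.7, 73.8 and 108 CPM in the other fibroblasts. Its difference was 2.75 (SE 0.56, adjusted p = 0.00402 in edgeR's quasi-likelihood test), and 1 cell of cKO 2 held 70 of the 89 UMIs there, without which cKO 2 was at 31.2 CPM.

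**Figure D5:**
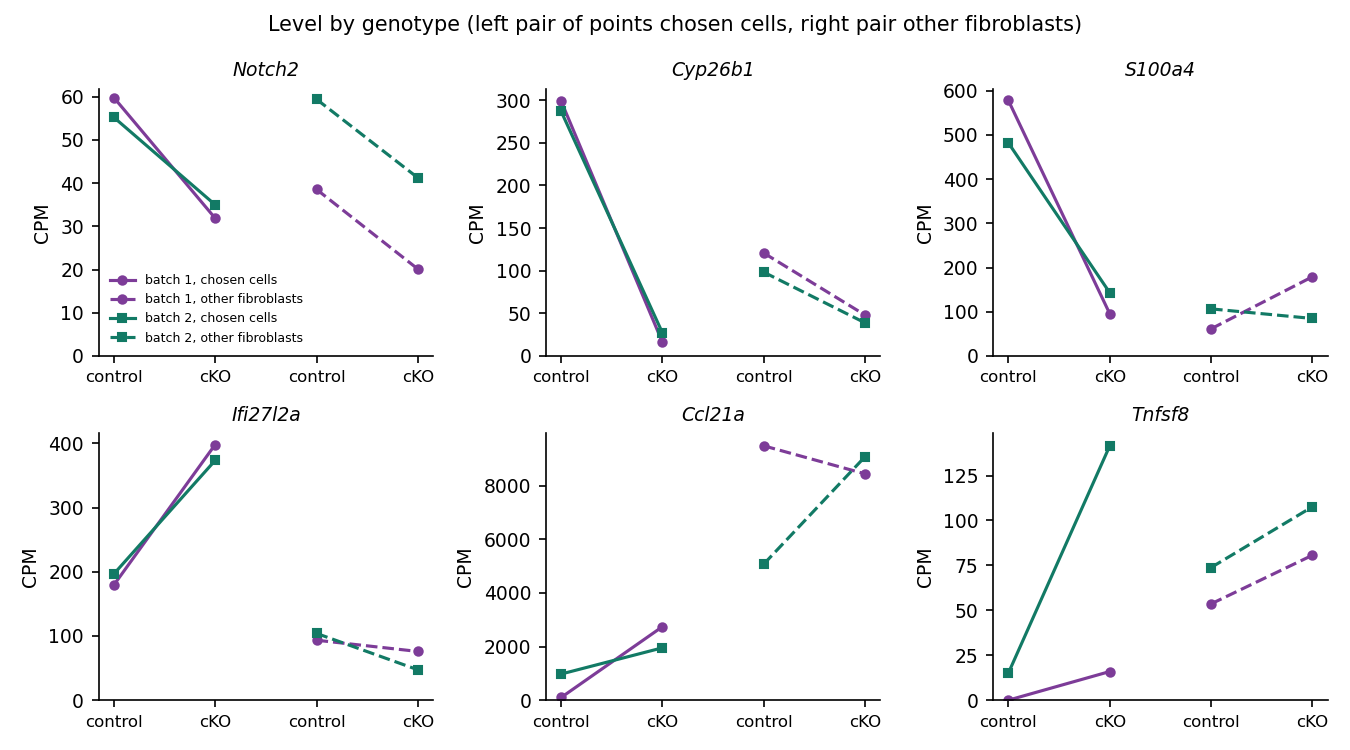
CPM (y axis) of 6 genes by genotype in the Has1/Ccn3 cells (left pair, solid lines) and the other fibroblasts (right pair, dashed lines); circles are batch 1 and squares batch 2. Lines for Cyp26b1 and S100a4 fall from control to knockout in the Has1/Ccn3 cells in both batches, those for Ifi27l2a rise, and 1 knockout library stands apart for Tnfsf8.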

How the data were processed

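Per the labels, 10x 3′ libraries were made from 4 pools of mice. The deposited files hold raw UMI counts of 32285 genes per cell, made by the authors with Cell Ranger. Per the file headers its version was 5.0.1 for batch 1 but 7.1.0 for batch 2; the submitters' processing notes name Cell Ranger 5.0.1 and mm10. The sources used here do not say whether introns were counted, and 3′ counts have no length scaling. A sequence of EYFP is not among the genes analysed here.

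Cells were filtered and chosen as stated in the report, and counts were summed per library and population. CPM is UMIs per 1000000 summed UMIs. Tests used edgeR 4.0.16 (R 4.3.3) with TMM scaling, its filter on low counts, batch as a covariate, and Benjamini-Hochberg adjustment over all genes tested at 0.05. The test of the difference between populations kept library as a block. Leaving out 1 library leaves no residual degree of freedom beside a batch term, so those fits drop batch. DESeq2 1.42.0 was an alternative. Scripts were tested on simulated data with 100 genes changed 4 times and 100 changed 8 times. The test within the Has1/Ccn3 cells recovered 44% and 84% of them, and the test of the difference 36% and 56%. The simulated counts gave each gene the spread of the fitted trend, with no variation around it and no outlying cells. These shares can therefore overstate what the tests find in the real counts. Many changes of 4 times would thus be missed. Where a symbol had several entries (38 symbols), the entry with most UMIs stands for it. Positions are from GENCODE vM21. A gene used as a limit on the other fibroblasts is not reported here.

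The cells, gene lists and tests were chosen with earlier results of these data known. Named genes are Notch2, the genes of the rule, the 20 genes with the highest lowest-library ratio at 50 CPM or more in the chosen cells, the 10 with the lowest highest-library ratio, up to 5 genes per direction with the lowest p where fewer than 5 passed, genes called for a difference in effect, and abundant members of the lists. Cilp, Ogn and the cholesterol, UDP-sugar and contractile lists were chosen after their values were seen. Replicate numbers mark batches per the labels, so they pair control with knockout; deviations of same-batch libraries correlated at 0.293.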

Additional observations from a re-analysis of the deposited data

Results flagged for a closer look

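For 4 genes the difference between Notch2 cKO and control was itself different in the Has1/Ccn3 cells and the other fibroblasts, by a test of that difference (edgeR's quasi-likelihood test, Benjamini-Hochberg adjusted over 14096 genes). Values are log2 effects in the Has1/Ccn3 cells minus those in the other fibroblasts. S100a4 differed by -2.21, with an effect of the same sign under all 14 alternatives run and an adjusted p above 0.05 under 2 of them, at most 0.730. Ifi27l2a differed by 1.92, with the same sign under all 14 and an adjusted p above 0.05 under 8. Ccl21a differed by 1.74 and Tnfsf8 by 2.75. For each of these, 7 alternatives kept the call, 6 kept only the sign and 1 turned the sign, and the adjusted p reached 1. For S100a4 and Ifi27l2a, control and knockout did not overlap in the Has1/Ccn3 cells, which is likely for genes picked by a test on these values.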

How the results depend on the processing

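Depth limits these comparisons: the Has1/Ccn3 cells of batch 1 hold 50170 and 62783 UMIs in all. The count of 0 genes called between genotypes became 17 (9 higher, 8 lower) with no filter on low counts, 2 with a sum of Ccn3 and Has1 of at least 5, 2 with a stricter cell filter, and 0 to 9 leaving out 1 library; without TMM and with DESeq2 it was 0. The replicate block was in the model except where 1 library was left out; without that pairing by batch (the batch term dropped) the count was 0, and the 4 differences in effect became 14, with Ccl21a, Ifi27l2a and Tnfsf8 no longer called (adjusted p 0.283, 0.156 and 0.0606 in edgeR). These 4 became 7 at a sum of at least 5, 14 at a sum of at least 2, 7 under the stricter filter, 9 without the top 10% of cells by UMIs, and 5 to 11 leaving out 1 library, fits that also drop the batch term. Ccl21a turned to -0.46 without those top cells, and Tnfsf8 ran from -0.29 to 12.54 leaving out 1 library. The 2 genes at least 4 times higher became 1 at a sum of at least 5 or at least 2 and under the stricter filter, and 2 to 6 leaving out 1 library. Among alternatives added after seeing the data, cells meeting the limits of the other fibroblasts gave 7 differences and 5 genes 4 times higher. Dropping the Rgs5 limit gave 10 and 8. Cells without Ccn3 gave 1 gene 4 times higher, and the 2-times threshold gave 33. Notch2 stayed between -0.60 and -1.10 and uncalled in all 10 alternatives that gave a value, and the share difference stayed negative in all 11. Where the rule asked for a UMI of both Ccn3 and Has1, cKO 1 had no cell and only the share could be computed. The cause of these changes was not tested.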
